A study of Mus musculus with 3 samples.

Results

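The peaks described here were strong in replicate 2 of a NUR77 ChIP-seq experiment and had no counterpart in replicates 1 and 3. They were chosen by 2 measured values. These were a peak score of 200 or more in the replicate 2 list and no overlap, not even of 1 bp, with a peak of either other list. Only chromosomes 1 to 19 were used. The rule found 1966 peaks among the 7356 replicate 2 peaks of that score on these chromosomes, the 36212 replicate 2 peaks there of any score, and the 52946 peaks of the 3 lists together. They are called unmatched strong peaks below. The other 5390 strong peaks, which overlapped replicate 1, replicate 3 or both, are called matched.

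The 3 replicates formed a single group. All came from RAW264.7, an established mouse macrophage line, made stable for pINDUCER20b-HA-NUR77, a construct from which doxycycline induces NUR77 with an HA tag. Each replicate was grown in 6 dishes, treated with doxycycline at 1 µg/mL for 18 hours, cross-linked, sheared to fragments of about 200 bp and precipitated with an anti-HA antibody. Every sample thus came from cells induced to express tagged NUR77, and no uninduced, untagged or control-antibody sample was analysed here. The labels do not say whether the line was a single clone, or whether the replicates were prepared on separate days. The peak lists hold no expression values, so the cell type was not checked against marker genes.

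NUR77, also called NR4A1, is an orphan nuclear receptor of the NR4A family and an immediate early transcription factor. It binds DNA as a monomer at NBRE elements and as a dimer at NurRE elements, and in macrophages and monocytes it is known for restraining inflammatory gene expression. A ChIP-seq peak is a stretch where precipitated fragments pile up over a control. A peak list therefore records which pile-ups passed the caller's threshold in that library, and not the amount of bound protein.

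The lists differed in length, with 37307 peaks in replicate 2 against 6777 in replicate 1 and 8862 in replicate 3, so most replicate 2 peaks had to lack a counterpart. Of all replicate 2 peaks on chromosomes 1 to 19, 74.4% (26927 of 36212) overlapped neither other list, which is the background for the counts that follow. The rule used this same overlap, so the counts describe the selection. With 50% of both peaks required to overlap, 3058 peaks would be unmatched and strong, and without replicate 3 there would be 3206. Sequencing depth is unknown here, and the scale of the score is not stated, so it serves only to rank peaks within replicate 2. Since the same peak calling gave position, width and score, and since peaks of a single library are not replicates, no test was applied between sets of peaks. Intervals in brackets after a share are 95% Wilson intervals and reflect counting error alone.

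Among the strong peaks, 26.7% (25.7 to 27.7) were unmatched, against 86.5% (86.1 to 86.9) of the 28856 peaks scored under 200. The unmatched share fell steadily with score. It was 45.9% (43.5 to 48.2) from 200 to under 250, 29.1% (26.9 to 31.4) from 300 to under 400, 18.0% (15.6 to 20.7) from 400 to under 500 and 1.10% (0.376 to 3.19) from 800 to under 950. At 950 and above it was 4.83% (3.39 to 6.86), with 29 of 600 peaks. The lowest share thus lay in the bin just below, but it rests on 3 of 272 peaks. The edge at 950 was set after seeing the values, so this low bin depends on that choice. The median score of the unmatched strong peaks was 270 (quartiles 230 and 349) and that of the matched strong peaks was 392 (quartiles 278 and 621). At the border of the rule, the 3 lowest unmatched strong peaks scored 200.12, 200.132 and 200.139, and the 3 highest unmatched peaks left out scored 199.95, 199.907 and 199.907.

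**Figure D1:**
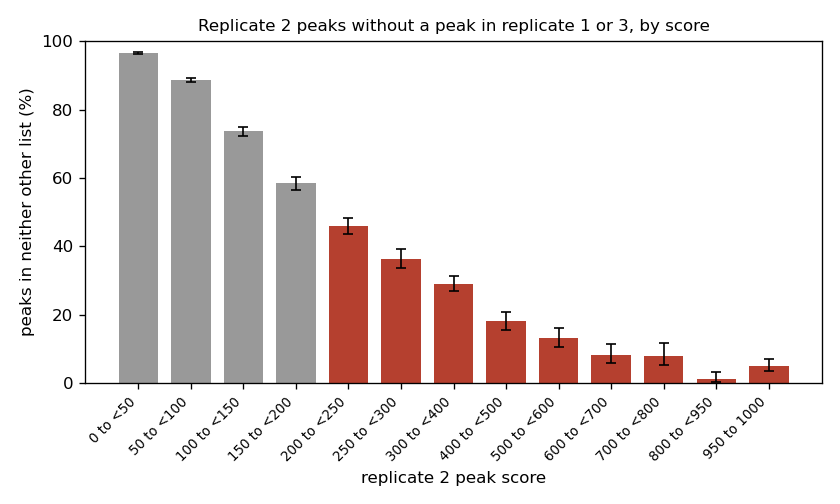
Share of replicate 2 peaks on chromosomes 1 to 19 that overlapped no peak of replicates 1 and 3 (vertical axis, percent), by replicate 2 score (horizontal axis, bins of unequal size); red bars are the bins of the unmatched strong peaks and error bars are 95% Wilson intervals. The share falls from 45.9% just above 200 to 1.10% between 800 and 950 and is 4.83% in the last bin. The edge at 950 was set after seeing the values.

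A score of 958.844 was tied among 533 peaks, which were not resolved from each other. Of these, 24 (4.50%, 3.04 to 6.61) were unmatched. Only 5 unmatched peaks scored above the tie, among 57 such peaks in all. The first was chr10:117488979-117489478 (mm9, as all positions here), scored 998.525. The others were chr12:100880767-100881366, scored 995.113, chr1:185906954-185907553, scored 969.759, chr4:134315526-134315925, scored 967.557, and chr6:13823926-13824425, scored 966.252. They were 400 to 600 bp wide. In 4 of these 5, both other replicates had a peak close by, although not over it. From border to border, the peaks of replicates 1 and 3 lay 664 and 738 bp from the chromosome 10 peak and 1251 and 1170 bp from the chromosome 1 peak. They lay 941 and 861 bp from that on chromosome 4 and 414 and 380 bp from that on chromosome 6. The exception was the chromosome 12 peak, which lay 153 kb from the nearest peak of either list.

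The 5 widest of the tied peaks complete the 10 highest-scored, and they do not stand for all 24. Of the 24, 11 lay within 2 kb of a stretch shared by replicates 1 and 3 (described below), but none of these 5 did. The 800 bp peak chr12:60141767-60142566 lay 842 bp from a replicate 3 peak and 56.9 kb from replicate 1. The equally wide chr15:26287786-26288585 lay 88.1 kb from replicate 1 and 401 kb from replicate 3. The peak chr4:149610526-149611225 lay 2.76 kb from replicate 3 and 51.2 kb from replicate 1. Both chr1:164882804-164883553 and chr5:76641573-76642322 had no peak of either list within 18 kb. The top of the unmatched list thus held peaks beside sites of the other replicates as well as peaks far from any.

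Unmatched strong peaks were narrower than matched peaks of the same score. Their median width was 600 bp in each score band from 200 to under 600, against 650 bp for matched peaks in the same bands. At 600 and above it was 550 bp (quartiles 425 and 650) against 700 bp (650 and 700). The median of the matched peaks was thus larger in the highest band and that of the unmatched was not. Widths came in steps of 50 bp for 99.7% of the unmatched strong peaks, so a difference of 50 bp in a median is 1 step.

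**Figure D2:**
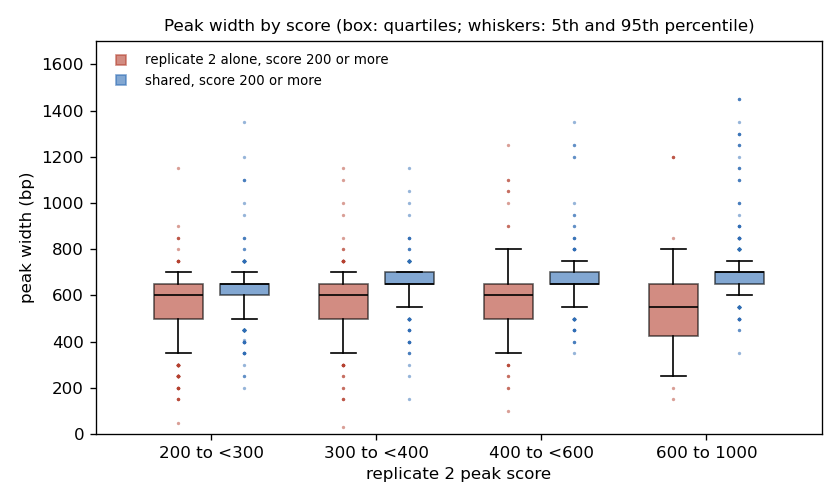
Peak width in bp (vertical axis) in 4 bands of replicate 2 score (horizontal axis) for unmatched strong peaks (red) and matched strong peaks (blue); boxes show quartiles and median, whiskers the 5th and 95th percentiles, points the peaks beyond them. The red boxes reach lower in every band, and in the last band the medians are 550 and 700 bp.

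The clearest difference in width was among narrow peaks. Of the unmatched strong peaks, 149 (7.58%, 6.49 to 8.83) were under 400 bp wide, against 20 (0.371%, 0.240 to 0.572) of the matched. At a score of 600 or more these were 17 of 83 (20.5%, 13.2 to 30.4) and 1 of 1422 (0.0703%, 0.0124 to 0.397). Read the other way, 50 of the 55 strong peaks under 300 bp were unmatched (90.9%, 80.4 to 96.1), as were 99 of the 114 from 300 to under 400 bp (86.8%, 79.4 to 91.9). From 700 to under 800 bp only 10.1% (8.93 to 11.5) were. The share was higher again among the widest peaks, at 13 of 49 (26.5%, 16.2 to 40.3) from 1000 bp on. A narrower interval has fewer bases with which to meet another list, and how much of the difference that accounts for was not tested.

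The narrowest, picked after their widths were seen, were chr3:15007060-15007090 with 31 bp (score 305.803), chr7:106249512-106249561 with 50 bp (284.056) and chr1:58769154-58769253 with 100 bp (410.261). These are below the fragment length of about 200 bp. The centre of the 31 bp peak lay 99 bp from the centre of another replicate 2 peak. The widest unmatched strong peak, chr13:74907231-74908480, spanned 1250 bp, scored 588.687 and lay 3.80 kb from a replicate 3 peak. Next came chr4:149726926-149728125, chr5:20694223-20695422 and chr11:68677407-68678606 with 1200 bp each, and chr8:73894619-73895768 with 1150 bp. Their scores ran from 328 to 714. None of these 5 lay within 2 kb of another replicate's peak.

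Position was measured against the sites that the study kept, the stretches covered by at least 2 replicates. Joined where they touch, the intervals of the deposited table form 9486 regions on chromosomes 1 to 19. An unmatched peak overlaps no such region by the way it was chosen, so each peak was measured to the nearest region it did not overlap, for matched peaks likewise. By centres, 32.4% (30.4 to 34.5) of the unmatched strong peaks lay within about 13 kb (50 kb divided by 4) of a region. The matched share was 36.0% (34.7 to 37.2) and that of unmatched peaks scored under 200 was 24.7% (24.2 to 25.3). Median distances were 26.7 kb, 21.1 kb and 40.0 kb. Only 4 unmatched strong peaks (0.203%) lay more than 1 Mb from a region, against 48 (0.891%) of the matched.

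The order of the sets changed with score, although the intervals overlapped in each band below 600. From 200 to under 300 the unmatched share was 29.7% (27.2 to 32.3) and the matched share 34.3% (32.1 to 36.7), with slightly overlapping intervals. From 300 to under 400 they were 30.8% (26.7 to 35.2) and 33.1% (30.4 to 36.0), with overlapping intervals. From 400 to under 600 the unmatched were closer, at 39.2% (33.2 to 45.6) against 32.3% (29.7 to 35.0), again with overlap. At 600 and above, 51 of 83 unmatched peaks lay that near a region (61.4%, 50.7 to 71.2), against 613 of 1422 matched (43.1%, 40.6 to 45.7), and the median distance was 7.47 kb against 15.9 kb. Of these matched peaks, 137 overlapped only 1 other list. Their share was 46.0% (37.9 to 54.3), an interval that overlaps that of the unmatched peaks. Among unmatched peaks, then, those with the highest scores lay nearest to sites of at least 2 replicates.

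**Figure D3:**
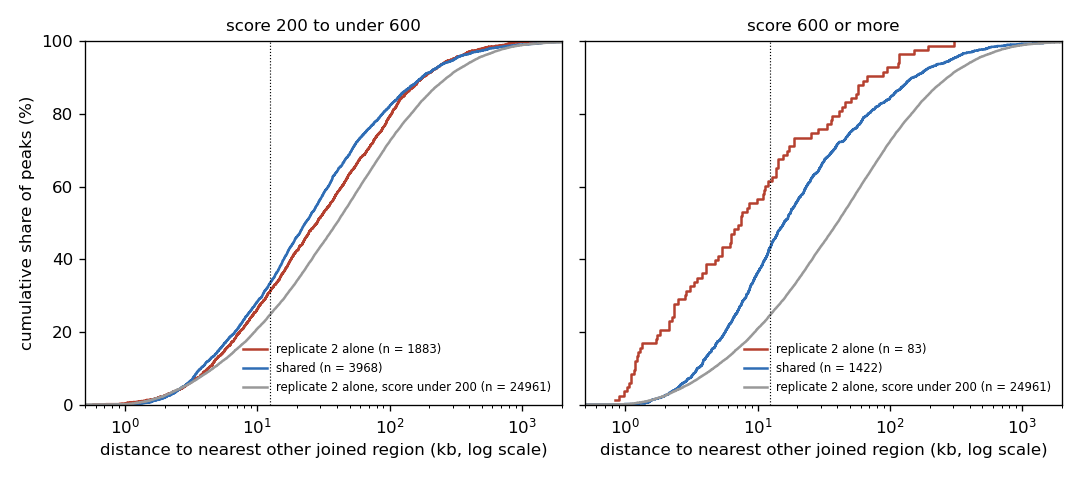
Cumulative share of peaks (vertical axis, percent) by distance between centres to the nearest joined region not overlapped (horizontal axis, kb, log scale), for scores of 200 to under 600 (left) and 600 or more (right); red is unmatched, blue matched, grey the unmatched peaks scored under 200 (the same curve in both panels), and the dotted line is at about 13 kb. On the left red runs between blue and grey from 5 to 50 kb, while below 3 kb the 3 curves lie close together and cross. At the dotted line on the right, red stands at 61.4% and blue at 43.1%.

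By distance to a region not overlapped, unmatched and matched peaks of the highest band differed most at close range. With distance now taken between borders, 22 of the 83 unmatched peaks scored 600 or more lay within 2 kb of a region (26.5%, 18.2 to 36.9), against 71 of 1422 matched (4.99%, 3.98 to 6.25). Of these 22, 12 had between 500 and 1000 bp of sequence between the borders, which is 14.5% of the 83, while 8 of the 1422 matched peaks (0.563%) lay in that range. From 400 to under 600, 19 of 232 unmatched peaks (8.19%, 5.31 to 12.4) and 2.64% (1.87 to 3.70) of the matched lay within 2 kb, so the difference was not confined to 600 and above. From 200 to under 300 the order was the other way, at 3.06% (2.23 to 4.19) against 4.59% (3.69 to 5.70), with overlapping intervals. Over all 1966, 95 lay within 2 kb (4.83%, 3.97 to 5.87), against 4.16% (3.65 to 4.72) of the matched, a pooled value that mixes these bands. A matched peak already overlaps a region and was measured to another one, while an unmatched peak overlaps none. How much of these differences comes from that was not tested.

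**Figure D4:**
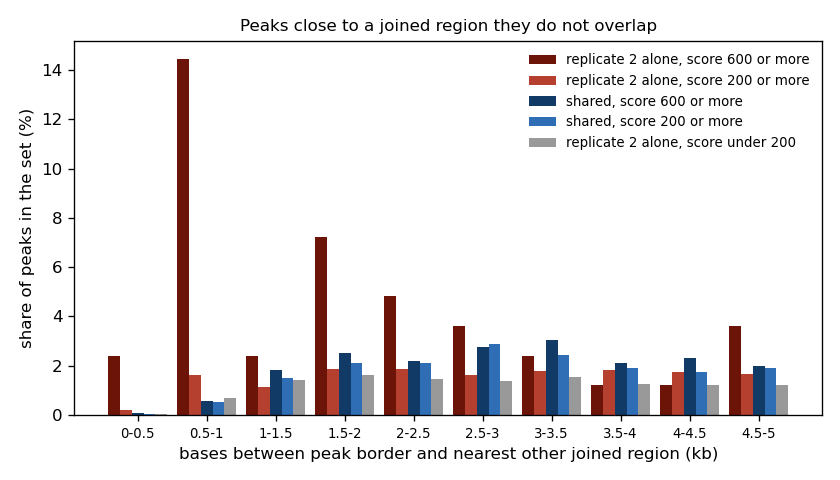
Share of the peaks of each set (vertical axis, percent) by the bases between the peak's border and the nearest joined region it does not overlap (horizontal axis, bins of 0.5 kb up to 5 kb); dark red is unmatched peaks scored 600 or more (83 peaks), red all 1966 unmatched strong peaks (which include them), dark blue matched peaks scored 600 or more, blue all matched strong peaks and grey unmatched peaks scored under 200. From 0.5 to 1 kb the dark red bar stands at 14.5% and the dark blue bar at 0.563%. A matched peak is measured to a region other than the one it overlaps.

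The regions involved were of a rare kind. All 22 of these peaks lay within 2 kb of a region that replicates 1 and 3 shared and in which replicate 2 had no listed peak. Such a region also lay within 2 kb of 29 of the 1422 matched peaks scored 600 or more. There were only 163 such regions on chromosomes 1 to 19, against 9323 with a replicate 2 peak. Of the 163, 53 (32.5%, 25.8 to 40.0) had an unmatched strong peak within 2 kb, against 44 of the 9323 (0.472%, 0.352 to 0.633). For unmatched peaks scored 600 or more, the numbers were 22 of 163 (13.5%, 9.08 to 19.6) and 1 of 9323 (0.0107%, 0.00189 to 0.0607). Counting any replicate 2 peak that did not overlap the region, 119 of the 163 (73.0%, 65.7 to 79.2) had one within 2 kb, as did 1315 of the 9323 (14.1%, 13.4 to 14.8). The regions were split by the overlap with replicate 2 itself, and peaks within a single list are spaced apart. A region that holds a replicate 2 peak seldom has a second one close by, and only 10 of the 9323 had one within 500 bp, against 14 of the 163. How much of this contrast comes from that spacing was not tested. Neighbouring replicate 2 peaks at these regions were not only unmatched strong ones. Of the 163, 36 had a matched strong peak and 29 an unmatched weaker peak within 2 kb. Against only the regions with a replicate 2 peak, 43.4% (33.2 to 54.1) of the unmatched and 41.0% (38.5 to 43.6) of the matched peaks scored 600 or more lay within about 13 kb. Within 2 kb of such regions by borders lay 1 of the 83 unmatched (1.20%, 0.213 to 6.51) and 43 of the 1422 matched (3.02%, 2.25 to 4.05). The intervals overlap. These comparisons, and the distance of 2 kb, were chosen after the positions had been seen.

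Single sites show the arrangement. Replicates 1 and 3 shared the region chr6:13823162-13823511, with scores of 140 in replicate 1 and 207 in replicate 3. Replicate 2 had no listed peak there, and its peak of 966.252 began 414 bp further on. The shared region chr10:117490217-117490442 (scores 150 and 234) lay 738 bp beyond the replicate 2 peak of 998.525. In the same way chr12:52967025-52967263 (scores 232 and 229) lay 458 bp from the tied replicate 2 peak chr12:52965917-52966566. The region chr1:165313655-165314173, the best-scored of the 22 in both other lists with 479 and 660, lay 701 bp from the tied peak chr1:165312304-165312953, a pair picked for these scores. In each case replicate 2 listed nothing over the shared region. Replicate 2 also has gaps in its peak numbers, with 19.7% of them absent. At 6 of the 22 sites, the chr1:165312304-165312953 pair among them, and at 12 of the 53, the next number towards the region is absent. There an unlisted replicate 2 peak over the region cannot be told apart from none. At the other sites the next number belongs to a listed peak. The cause of the arrangement was not tested.

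The 22 sites lay on 15 chromosomes, with gaps of 414 to 1977 bp and a median of 915 bp. The unmatched peaks there spanned from 150 to 700 bp (median 500), and 11 of them were at the tied score. The scores in replicates 1 and 3 played no part in choosing the peaks. Ranked within their own lists, the peaks of the 22 regions stood at a median percentile of 88.9 in replicate 1 (41.4 to 99.6) and 93.7 in replicate 3 (74.4 to 99.7). For all 53 regions with an unmatched strong peak within 2 kb the medians were 78.1 and 87.7. For the other 110 regions without a replicate 2 peak they were 45.7 and 68.1, and for the 4551 regions with all 3 replicates 60.4 and 66.2. The 4551 regions hold replicate 2 peaks of any score, so they were not matched to the 22 by replicate 2 score. How much of the difference comes from that was not tested. By their medians, the regions next to the strongest unmatched peaks were thus themselves high in both other lists, though single ones in replicate 1 were not.

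**Figure D5:**
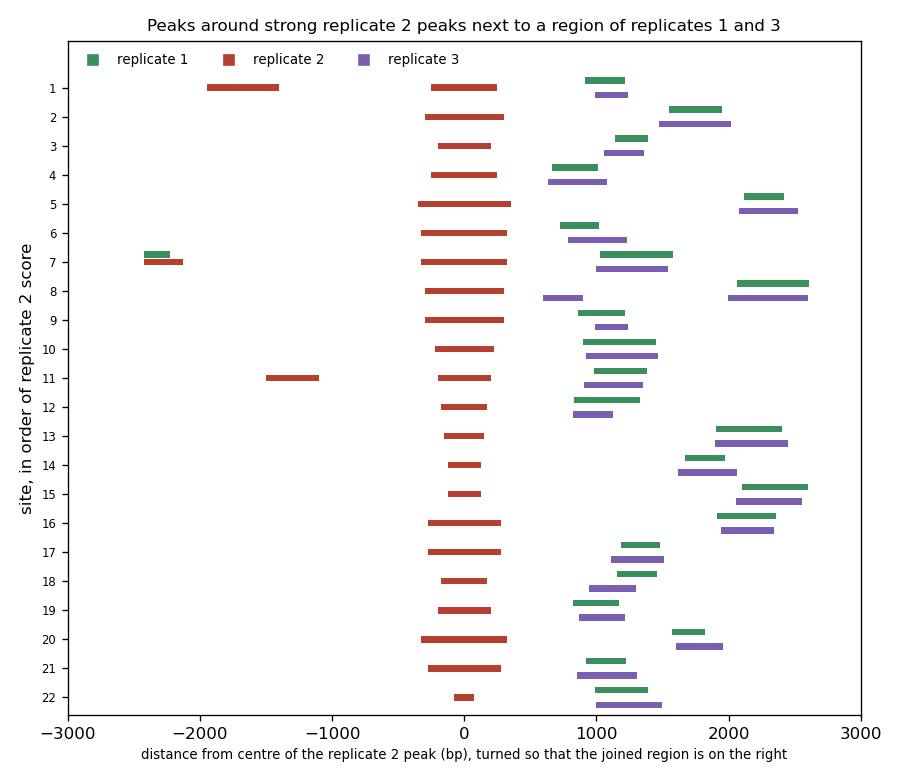
Listed peaks of the 3 replicates (green, red and purple bars) around the 22 unmatched peaks scored 600 or more that lie within 2 kb of a region of replicates 1 and 3, 1 site per line in order of replicate 2 score; the horizontal axis is the distance in bp from the centre of the unmatched peak, mirrored where needed so that the region is on the right. Green and purple bars sit together to the right of each red central bar, with no red bar over them.

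Over all unmatched strong peaks, near misses were the exception. The nearest peak of replicate 1 or 3 lay a median of 21.7 kb away (quartiles 6.01 and 74.0 kb), with 27 (1.37%, 0.946 to 1.99) within 500 bp and 122 (6.21%, 5.22 to 7.36) within 1000 bp. Among the weaker unmatched peaks, 54 (0.216%, 0.166 to 0.282) lay within 500 bp and 272 (1.09%, 0.968 to 1.23) within 1000 bp. The closest to a region was chr11:102976807-102977406, which scored 427.004 and lay 127 bp from it. A replicate 3 peak began 30 bp from it. The second, chr16:15990696-15991295 with 232.783, lay 343 bp from a region. After these came the peaks at 414 and 458 bp given above, and chr5:54416873-54417372 with 286.141, lay 597 bp away.

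At the other extreme stood peaks in stretches without any kept site. The farthest was chr16:98183496-98184045, 1.42 Mb from a region, with a score of 216.853. Next came chr15:44456286-44456885, chr15:94518536-94519185 and chr15:12957186-12957835, which lay 1.42, 1.11 and 1.00 Mb away with scores of 203.08, 227.747 and 295.036. The fifth, chr8:111266969-111267618, scored 391.669 and lay 950 kb away. All 5 were 550 to 650 bp wide and scored below 400. Unmatched strong peaks with neither a region nor another replicate 2 peak within 50 kb numbered 101 (5.14%, 4.25 to 6.20), close to the matched share of 5.16% (4.60 to 5.78). The weaker unmatched peaks were isolated more often, at 10.5% (10.1 to 10.9).

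Most unmatched strong peaks had company in replicate 2 itself. Within about 13 kb by centres, 69.6% (67.6 to 71.6) had another replicate 2 peak of any score, against 73.4% (72.2 to 74.6) of the matched strong and 60.4% (59.8 to 61.0) of the weaker unmatched peaks. Another strong peak lay that near for 27.5% (25.5 to 29.5) of the unmatched and 29.8% (28.6 to 31.0) of the matched. A matched strong peak was within this distance of 410 unmatched ones (20.9%, 19.1 to 22.7), and another unmatched strong peak of 183 (9.31%, 8.10 to 10.7). Among the matched, 24.0% (22.9 to 25.2) had another of their own kind that near, but there are 5390 of them, and a larger set gives more neighbours.

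Chained at the same distance, the unmatched strong peaks formed 81 pairs and 7 groups of 3, and 1783 stood alone. No group held more than 3. The matched strong peaks formed 114 groups of 3 or more, the largest with 6. The group with the highest peak was chr4:124373276-124388775. Its peaks scored 237, 252 and 650, with no listed peak of replicates 1 and 3 inside and the nearest replicate 3 peak 30.4 kb away. The 3 peaks of chr16:36167746-36184495 scored 264, 410 and 301, and the nearest peaks of replicates 1 and 3 were both 260 kb away. The group chr8:86715769-86732218 scored 286 to 454 and had a replicate 3 peak at 14.4 kb.

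The remaining groups were chr9:45836147-45845646, chr10:79615629-79628978, chr13:109556231-109578530 and chr13:5862831-5875180. The first of the pair on chromosome 13 was the only one of the 7 to enclose a region of at least 2 replicates, and its peaks scored 243 to 450. The second enclosed a replicate 3 peak. The groups on chromosomes 9 and 10 enclosed no peak of another list and scored 220 to 355 and 203 to 291. Over windows of 1 Mb, the 1966 peaks fell in 1030 windows, 506 of which held a single one. The fullest, picked by count, was chr3:95000001-96000000 with 9 unmatched and 21 matched strong peaks. Among the 7 windows with 7 each, chr16:36000001-37000000 and chr12:17000001-18000000 had the fewest matched strong peaks, 2 and 3.

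No chromosome stood far from the others. The unmatched share of strong peaks ran from 22.1% (17.6 to 27.4) on chromosome 14 to 30.4% (23.7 to 37.9) on chromosome 18 and 30.0% (26.4 to 33.9) on chromosome 11. Chromosome 11 held the most, 169, followed by chromosome 1 with 161 and chromosome 2 with 156. Those 3 also held the most strong peaks of any kind, between 563 and 661. Chromosomes are not replicates, and no test was applied between them.

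How firmly a peak is missing from the other lists could be read in part from the peak numbers. In the lists of replicates 1 and 3, 39.1% and 38.8% of the numbers up to the highest are absent, so peaks that were numbered are not listed. Numbers run along the chromosomes. Where the listed peaks on either side of a position carry consecutive numbers, no numbered peak lay between them. For 1498 of 1959 unmatched strong peaks with flanking peaks (76.5%, 74.5 to 78.3), at least 1 replicate 1 number was absent between the flanks, and for 1548 of 1958 (79.1%, 77.2 to 80.8) a replicate 3 number. The median number absent was 1 for each list, between flanks a median of 328 and 218 kb apart. Where between the flanks an absent peak lay is unknown, so few of these need concern the site itself. The weaker unmatched peaks had absent numbers less often, in 60.1% (59.5 to 60.7) and 62.2% (61.6 to 62.8), although their flanks were farther apart, with medians of 451 and 316 kb against 328 and 218 kb. The 83 unmatched peaks scored 600 or more did not share this for replicate 3, with 60.2% (49.5 to 70.1), and had 79.5% (69.6 to 86.8) for replicate 1. Their flanks were closer together, with medians of 152 kb for replicate 1 and 58.3 kb for replicate 3. Absent numbers per Mb were 4.66 and 6.17 for these 83. They were 2.60 and 3.30 for all unmatched strong and 1.43 and 1.88 for the weaker unmatched peaks. Only 194 unmatched strong peaks (9.87%, 8.63 to 11.3) lay where neither list had an absent number, against 21.0% (20.5 to 21.5) of the weaker unmatched. Peaks without flanking peaks on both sides could not count as such, but stayed in these totals. For replicates 1 and 3 they were 7 and 8 unmatched strong and 173 and 124 weaker peaks. For matched strong peaks the share without an absent number was 36.4% (35.1 to 37.7). It is not comparable, since their own counterpart is among the listed peaks on which it rests. For the others, an unlisted numbered peak at the same place cannot be told apart from none.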

How the data were processed

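Peak lists of 3 ChIP-seq replicates were analysed. The authors deposited for each a position, a MACS-style name and a score of unstated scale per peak. The build is mm9, per the submitters' processing notes. Per the series' design text, input reads of other studies served as controls; the sources used here do not give the aligner, caller or threshold. The deposited table of stretches covered by at least 2 replicates (positions, no score) was joined where intervals touch into 9800 regions. Starts were taken as 0-based and printed 1-based.

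Members, lists and comparisons were chosen with earlier results of these data known. The score edge of 950 and the width limit of 400 bp were set after seeing the values. Peaks were matched at 1 bp of overlap. Named were the 10 highest-scored, 5 widest, 5 closest to and 5 farthest from a region, 3 on either side of the score of 200, and every group of 3 or more; ties were broken by width and position. Comparison in bands of score replaces a test. No genome or annotation of mm9 was used here, so no gene, motif or sequence is given. Code was tested on simulated data. Intervals came from scipy 1.17.1; tables were handled with pandas 2.3.3 and numpy 2.4.6 in Python 3.11.15, and plots drawn with matplotlib 3.10.9.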

Additional observations from a re-analysis of the deposited data

How the results depend on the processing

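The peaks numbered 1966 by the rule. With an overlap of 50% of both peaks required for a match there were 3058. With scores of 300 or 400 and more there were 757 and 315, and 194 where no peak number of replicates 1 and 3 was absent. Leaving out replicate 1 or 3 gave 2470 to 3206, highest without replicate 3. Their median width of 600 bp moved only to 650 bp where no number was absent. The share near a region, 32.4%, was 36.7% and 45.1% at scores of 300 and 400, 35.1% where no number was absent, 17.4% for regions of all 3 replicates, and 13.9% and 64.4% at 5 and 50 kb. The share with another member nearby, 9.31%, was 14.0% with the overlap of 50%, 12.7% with centres within 100 bp, 5.02% and 1.27% at scores of 300 and 400, 3.09% where no number was absent, and 3.10% and 26.0% at 5 and 50 kb. It ranged from 11.3% to 13.1% without replicate 1 or 3. Fewer peaks have fewer neighbours; for the other shifts the cause was not tested. The 163 regions without a replicate 2 peak had an unmatched strong peak nearby in 18.4% within 1 kb, and in 24.5% and 21.5% at scores of 300 and 400. Of 46 alternatives, 22 stayed within the interval of the main value, or within 1.5 times for a count. Those on absent numbers and on the 163 regions were chosen after seeing the data. No paired analysis was possible because the 3 replicates form 1 group. Without replicate 2 no such peak exists. Depth is unknown, so a place without a listed peak is not shown to be unbound.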
